A study of Mus musculus with 10 samples.

Results

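Vamp8, Cep41 and Rab13 are the 3 autosomal genes whose H4K20me1 score rose most on the log2 scale in muscle stem cells (MuSCs) without Kmt5b. They were selected by that rise from 13750 genes tested, so their own H4K20me1 values are given as a description with no test. Each of the 3 genes was listed with 1 H4K20me1 peak. All peaks within 50 kb of the genes were taken with them, which gave 13 of the 44925 H4K20me1 peaks and 44 of the 51322 peaks of RNA polymerase II phosphorylated at serine 2 (Pol II S2P). Both marks were mapped by CUT&RUN, in which an antibody tethers a nuclease to chromatin and the released fragments are sequenced. Control cells (Ctrl) carried the genotype Pax7CreERT/Suv4-20h1WT and knockout cells (sKO) the genotype Pax7CreERT/Suv4-20h1KO, where Suv4-20h1 is the older name of Kmt5b. The tamoxifen-inducible Cre of both genotypes is driven from Pax7, which confines it to satellite cells, and per the study's methods the cells were purified after tamoxifen and grown in culture. There were 2 libraries for each genotype and antibody, 8 in all. The labels do not tie a library to an animal, so the spread between replicates may be partly technical.

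H4K20me1 is placed on histone H4 by KMT5A, and KMT5B and its paralogue KMT5C add further methyl groups to it. H4K20me1 usually forms broad domains over transcribed gene bodies, and Pol II S2P is the form of the polymerase found on elongating genes. VAMP8 is a SNARE protein of endosomes and lysosomes that also acts in the fusion of autophagosomes with lysosomes, CEP41 is a protein of centrosomes and cilia needed for the glutamylation of ciliary tubulin, and RAB13 is a small GTPase of vesicle traffic related to RAB8 and RAB10.

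The scores are whole numbers for each peak that stand for coverage normalised to a spike-in, and they are not divided by peak length. The autosomal H4K20me1 total was 13533657 and 18103713 for Ctrl, against 29655556 and 32238286 for sKO. The Pol II S2P totals, 3224367 and 4201202 for Ctrl against 4836482 and 3401198 for sKO, overlapped. The 2 Pol II S2P peaks of Kmt5b itself summed to 24 and 62 for Ctrl against 48 and 22 for sKO. These sums do not check the deletion, because the deleted exons were not measured on their own. Markers of satellite cells and myoblasts carried most of the marker signal in every library. Their list was longer, with 8 markers beside 3 or 4 for each other type, and Megf10 and Des had the largest scores. Of the 8, 6 had a Pol II S2P peak, while Myf5 and Cdh15 had none. The summed score of the 6 was 7117 and 7922 in Ctrl against 8746 and 5945 in sKO. Myod1 was lower in both sKO libraries, at 1329 and 1110 in Ctrl against 887 and 649 in sKO. At the other markers of this list with a peak the genotypes overlapped. The largest sum of another type was that of the 4 immune markers, 935 and 1037 against 1392 and 888. It came from 2 of them, mainly Cd68, and the defining marker Ptprc had no Pol II S2P peak.

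The 3 H4K20me1 peaks lie at the 3′ end of Vamp8, inside introns of Cep41 and around an internal start of Rab13. In coordinates of mm10 (GRCm38), as deposited, the Vamp8 peak is chr6:72382400-72386199, 3800 bases long. It covers the 3′ end of Vamp8, a gene on the minus strand at chr6:72385223-72390703. Of its bases, 2823 lie downstream of the gene, 546 in an intron and 431 in exons, and the nearest Vamp8 start, that of the transcript Vamp8-202, is 3712 bases away. The deposited table gives 0.3 as the fraction of this peak in the gene body.

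The Cep41 peak, chr6:30672600-30678799, is 6200 bases long and lies wholly in introns of Cep41 (chr6:30653457-30693749, minus strand). It also holds the start of the antisense gene Gm13782 at position 30673944 on the plus strand. The nearest annotated Cep41 start, that of the short transcript Cep41-205, is 1734 bases outside the peak, and the start of the full-length transcript Cep41-201 is 14950 bases away. The Rab13 peak, chr3:90220000-90223199, is 3200 bases long and lies inside Rab13 (chr3:90213695-90226385, plus strand). It has 2903 bases in introns and 297 in exons. The start of the transcript Rab13-201 at position 90220787 is within it, while the upstream start of Rab13-202 at position 90213695 is not.

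The sequences at which the polymerase was or was not found around these peaks were read from the GRCm38 genome and are shown 5′ to 3′ on the strand of the gene, with every CpG in capitals, because CpG-rich and CpG-poor starts differ in how they are regulated. The first is the central stretch of the Pol II S2P peak that lies inside the Vamp8 H4K20me1 peak, downstream of the gene (chr6:72383327-72383626, minus strand, outside any gene):
Vamp8 downstream: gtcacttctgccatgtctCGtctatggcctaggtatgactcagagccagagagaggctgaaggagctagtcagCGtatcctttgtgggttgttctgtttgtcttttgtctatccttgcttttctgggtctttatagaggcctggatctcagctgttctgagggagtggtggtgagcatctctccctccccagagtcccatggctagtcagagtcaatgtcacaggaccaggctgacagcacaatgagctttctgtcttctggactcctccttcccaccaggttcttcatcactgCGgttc
The next precedes the Vamp8 start (chr6:72390704-72390917, minus strand) and overlaps no peak of either antibody:
Vamp8 start: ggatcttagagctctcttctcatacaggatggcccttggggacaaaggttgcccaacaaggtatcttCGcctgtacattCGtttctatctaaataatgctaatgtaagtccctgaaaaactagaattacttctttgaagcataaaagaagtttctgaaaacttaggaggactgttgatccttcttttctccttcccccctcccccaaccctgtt
For Cep41 the stretch before the start of the full-length transcript (chr6:30693750-30693999, minus strand) also overlaps no peak, and that before Cep41-205 (chr6:30680534-30680783, minus strand) lies in a Pol II S2P peak over its whole length:
Cep41 start: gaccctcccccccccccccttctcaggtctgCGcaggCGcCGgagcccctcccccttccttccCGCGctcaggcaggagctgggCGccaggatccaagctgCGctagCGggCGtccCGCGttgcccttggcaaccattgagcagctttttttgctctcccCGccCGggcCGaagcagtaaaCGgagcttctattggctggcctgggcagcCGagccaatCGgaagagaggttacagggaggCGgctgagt
Cep41-205 start: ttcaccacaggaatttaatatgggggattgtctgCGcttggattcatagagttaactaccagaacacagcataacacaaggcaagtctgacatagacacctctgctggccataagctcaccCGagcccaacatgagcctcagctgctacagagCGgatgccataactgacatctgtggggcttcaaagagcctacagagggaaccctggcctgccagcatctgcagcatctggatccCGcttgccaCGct
For Rab13 the upstream stretch is the whole gap of 43 bases between the divergent starts of Rps27 and Rab13 (chr3:90213652-90213694, plus strand), under a Pol II S2P peak, and the other one precedes Rab13-201 (chr3:90220534-90220783, plus strand), inside the Rab13 H4K20me1 peak and with 225 of its bases in a Pol II S2P peak:
Rps27 and Rab13 gap: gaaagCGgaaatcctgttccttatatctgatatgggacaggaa
Rab13-201 start: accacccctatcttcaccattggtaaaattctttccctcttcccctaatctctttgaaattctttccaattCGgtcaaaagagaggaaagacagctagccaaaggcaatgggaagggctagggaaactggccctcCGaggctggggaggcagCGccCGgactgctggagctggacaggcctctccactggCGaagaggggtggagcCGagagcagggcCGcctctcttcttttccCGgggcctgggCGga
Over the 250 bases before the start of all 32851 RefSeq promoters (GRCm38.p6) the median was 6 CpGs. The RefSeq promoter of Vamp8 held 3 CpGs, and 29.0% of promoters held fewer. That of Cep41 held 18, and those of Rab13 held 20 at the upstream start and 9 at the internal one, where 78.3%, 82.1% and 59.7% of promoters held fewer. Vamp8 was thus the CpG-poor gene of the 3. The window at the upstream Rab13 start reaches past the gap of 43 bases into Rps27, and the gap alone held 1 CpG. The E-box CAGCTG, which reads the same on both strands, occurred once before Cep41-205 and once in the Vamp8 downstream stretch and in none of the other 4 stretches, against 13.0% of all promoters over 250 bases.

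At the Vamp8 peak the H4K20me1 score was 12 and 10 in Ctrl against 179 and 192 in sKO. The mean score was 16.9-fold higher in sKO, and the rise on the log2(score + 1) scale was 3.96. At the Cep41 peak the scores were 25 and 29 in Ctrl against 358 and 411 in sKO, which made the mean 14.2-fold higher and the log2 rise 3.78. At the Rab13 peak they were 7 and 15 in Ctrl against 156 and 143 in sKO, a mean 13.6-fold higher and a log2 rise of 3.73. The genotypes did not overlap at any of the 3 peaks, which the selection ensured, and 93.8% of all autosomal peaks likewise had both sKO values above both Ctrl values. The median log2 rise over all genes tested was 1.11. Scaled to equal library totals the rises were 3.02, 2.82 and 2.80 beside a median of 0.13, and after quantile normalisation 2.26, 2.35 and 2.05 beside a median of 0.00.

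The genes just past the limit were 3 long non-coding genes. A530065N20Rik rose by 3.59 on the log2 scale, Gm40915 by 3.56 and 1700025L06Rik by 3.54, compared with 3.73 for Rab13 as the last of the 3. Ordered by single peaks instead of gene sums, the Vamp8, Cep41 and Rab13 peaks were 4th, 7th and 10th of 41008 autosomal peaks, behind peaks in Lamb3, Fggy, Hhat and Fn3krp and 2 peaks outside genes. The order within the 3, and their place at the top, rested on small Ctrl scores. With a pseudocount of 5 the ranks of Vamp8, Cep41 and Rab13 among genes were 2, 1 and 5. Without the first Ctrl library their ranks among genes were 3, 6 and 14, and without the second 11, 8 and 3.

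**Figure D1:**
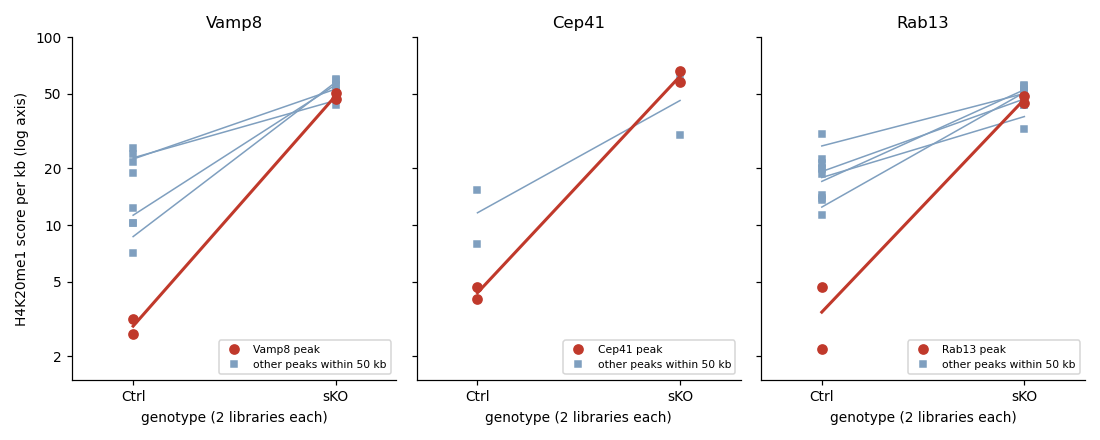
H4K20me1 score per kb of peak (log axis) in the 2 Ctrl and 2 sKO libraries, for the peak listed with each gene (red circles) and the other peaks within 50 kb (blue squares), with lines joining the genotype means. The red points lie below all blue points in Ctrl and among or above them in sKO.

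Per kb of peak, the 3 combined a very low Ctrl level with a large gain, both of which a choice by ratio favours. The Ctrl mean was 2.89 per kb at the Vamp8 peak, 3.44 at the Rab13 peak and 4.35 at the Cep41 peak, while the median of all autosomal peaks was 22.4 with an interquartile range of 17.8 to 26.8. The Vamp8 peak had the lowest Ctrl mean of all 41008, and only 17 peaks, these 3 included, were at or below the Cep41 value. In sKO the means were 48.8 at Vamp8, 46.7 at Rab13 and 62.0 at Cep41, beside a median of 49.0 and an interquartile range of 44.4 to 53.7. The sKO level was thus within the interquartile range at Vamp8 and Rab13 and above it at Cep41. The gain from Ctrl to sKO was 45.9 per kb at Vamp8, 57.7 at Cep41 and 43.3 at Rab13, where the median peak gained 26.7 and 97.1%, 99.4% and 95.6% of peaks gained less.

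The place of each peak among all peaks was also taken within single libraries, where no scale between libraries enters. The 3 peaks did not keep one order among themselves across libraries. Of all peaks, 0.0317% and 0.0122% had a lower score per kb than the Vamp8 peak in Ctrl, against 49.6% and 47.1% in sKO. For Cep41 the shares were 0.124% and 0.102% in Ctrl against 91.3% and 95.3% in sKO. For Rab13 they were 0.00732% and 0.105% in Ctrl against 58.6% and 23.5% in sKO, the widest spread between replicates of the 3. All 3 were near the bottom in both Ctrl libraries, which the choice by ratio favours.

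**Figure D2:**
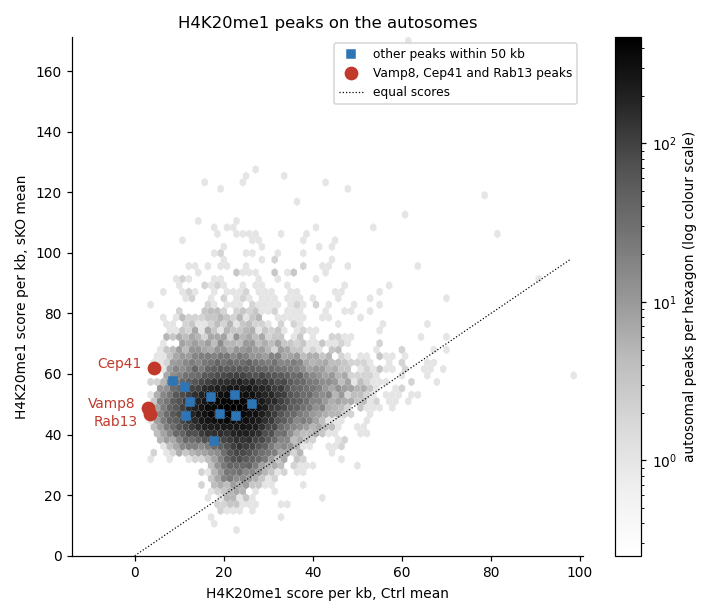
H4K20me1 score per kb in Ctrl (x axis, mean of 2 libraries) and sKO (y axis, mean of 2 libraries) for the 41008 autosomal peaks (grey hexagons, log colour scale), the Vamp8, Cep41 and Rab13 peaks (red) and the 10 other peaks within 50 kb (blue). The 3 peaks sit at the left edge, at 2.89 to 4.35 in Ctrl, and at heights of 46.7 to 62.0 within the main cloud.

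The 3 peaks shared few other features. Their lengths of 3200, 3800 and 6200 bases were below the median of 8400. GC content was 45.9% at Vamp8, 43.4% at Cep41 and 50.1% at Rab13, around the median of 44.3%. Soft-masked repeats made up 33.8%, 12.0% and 20.6% of the Vamp8, Cep41 and Rab13 peaks, compared with a median of 21.6%. GC content and repeat load thus fell on both sides of the median. CpGs per kb were 10.3, 12.3 and 14.7 at Vamp8, Cep41 and Rab13, each above the median of 10. Of all peaks, 53.0%, 70.3% and 84.8% had fewer. The gap to the nearest other H4K20me1 peak was 9000 bases at Vamp8, 8800 at Rab13 and 40200 at Cep41, each above the median of 3200. The gap on the farther side was 12200 bases at Vamp8 and 11000 at Rab13, both below the median of 17000. At Cep41 it was 166400.

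A Pol II S2P peak overlapped the Vamp8 and the Rab13 peak but not the Cep41 peak. Among the 17 peaks with a Ctrl level at or below that of Cep41, 11 (64.7%) overlapped a Pol II S2P peak, whereas 25.6% of all autosomal H4K20me1 peaks and 14.4% of those between 3200 and 6200 bases long did. Of the 14 that were not listed with the 3 genes, 9 did. These counts rest on few peaks and were not tested.

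Around Vamp8 the new H4K20me1 signal stood between established domains. A peak of 69600 bases listed with Usp39, a splicing factor gene, spans the genes from Usp39 to Rnf181 and had scores of 1325 and 1800 in Ctrl against 3562 and 3813 in sKO. On the other side a peak of 24600 bases over Ggcx and Mat2a, which encode the vitamin K-dependent carboxylase and a methionine adenosyltransferase, scored 531 and 590 in Ctrl against 1192 and 1074 in sKO. Per kb these 2 domains had Ctrl means of 22.4 and 22.8, the level of the median peak. Their log2 rises were 1.25 and 1.01.

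The 2 peaks next to Vamp8, of 3400 and 9800 bases, resembled it more than the domains did. The peak in Vamp5, the gene of a SNARE protein of myogenic cells that lies head to tail with Vamp8, scored 24 and 35 in Ctrl against 190 and 202 in sKO. The intergenic peak 12200 bases from the Vamp8 peak, on the side of the Vamp8 start, scored 101 and 120 in Ctrl against 587 and 506 in sKO. Their Ctrl means per kb were 8.68 and 11.3, between the level of the Vamp8 peak and that of the domains, and their log2 rises were 2.71 and 2.30. In sKO all 5 peaks of the neighbourhood lay between 46.1 and 57.6 per kb.

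Cep41 stood almost alone. The only other H4K20me1 peak within 50 kb was 40200 bases away, over the processed pseudogene Gm14528 and before the start of Mest, an imprinted gene of mesoderm. It scored 27 and 52 in Ctrl against 103 and 210 in sKO, a log2 rise of 1.94 with a wide spread inside each genotype, and its mean per kb went from 11.6 to 46.0. The nearest H4K20me1 peak on the other side of the Cep41 peak was 166400 bases away.

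Rab13 was flanked by 5 peaks. The 3 in Nup210l, a nucleoporin-related gene, had log2 rises of 1.09, 1.28 and 0.93, and the nearest of them, 8800 bases from the Rab13 peak, scored 255 and 346 in Ctrl against 510 and 634 in sKO. On the other side the peak over Creb3l4 and Jtb scored 140 and 169 in Ctrl against 575 and 685 in sKO, a log2 rise of 2.02, and that over Slc39a1, Crtc2 and Dennd4b scored 509 and 734 against 1890 and 1935, a log2 rise of 1.64. Creb3l4 encodes a membrane-bound transcription factor and Dennd4b an activator of Rab GTPases. The Ctrl means per kb of the 5 ranged from 12.5 to 26.4 and the sKO means from 37.8 to 52.5.

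All 10 neighbouring H4K20me1 peaks were called higher in sKO, where 90.0% of the autosomal peaks tested were (limma on log2(score + 1), adjusted p under 0.1 and a log2 change over 0.5), so this share is close to that of the genome. Their median log2 rise was 1.46 and that of all peaks 1.14. With equal library totals 5 of the 10 were called higher, those at Vamp5, Gm14528, Creb3l4, Dennd4b and the intergenic peak beside Vamp8, and the peak nearest to Rab13 in Nup210l turned to -0.05. On that scale 22.6% of all autosomal peaks were called higher, a lower share than among the 10, and the difference was not tested. Without the second sKO library 5 of the 10 were called, beside 43.6% of all peaks.

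**Figure D3:**
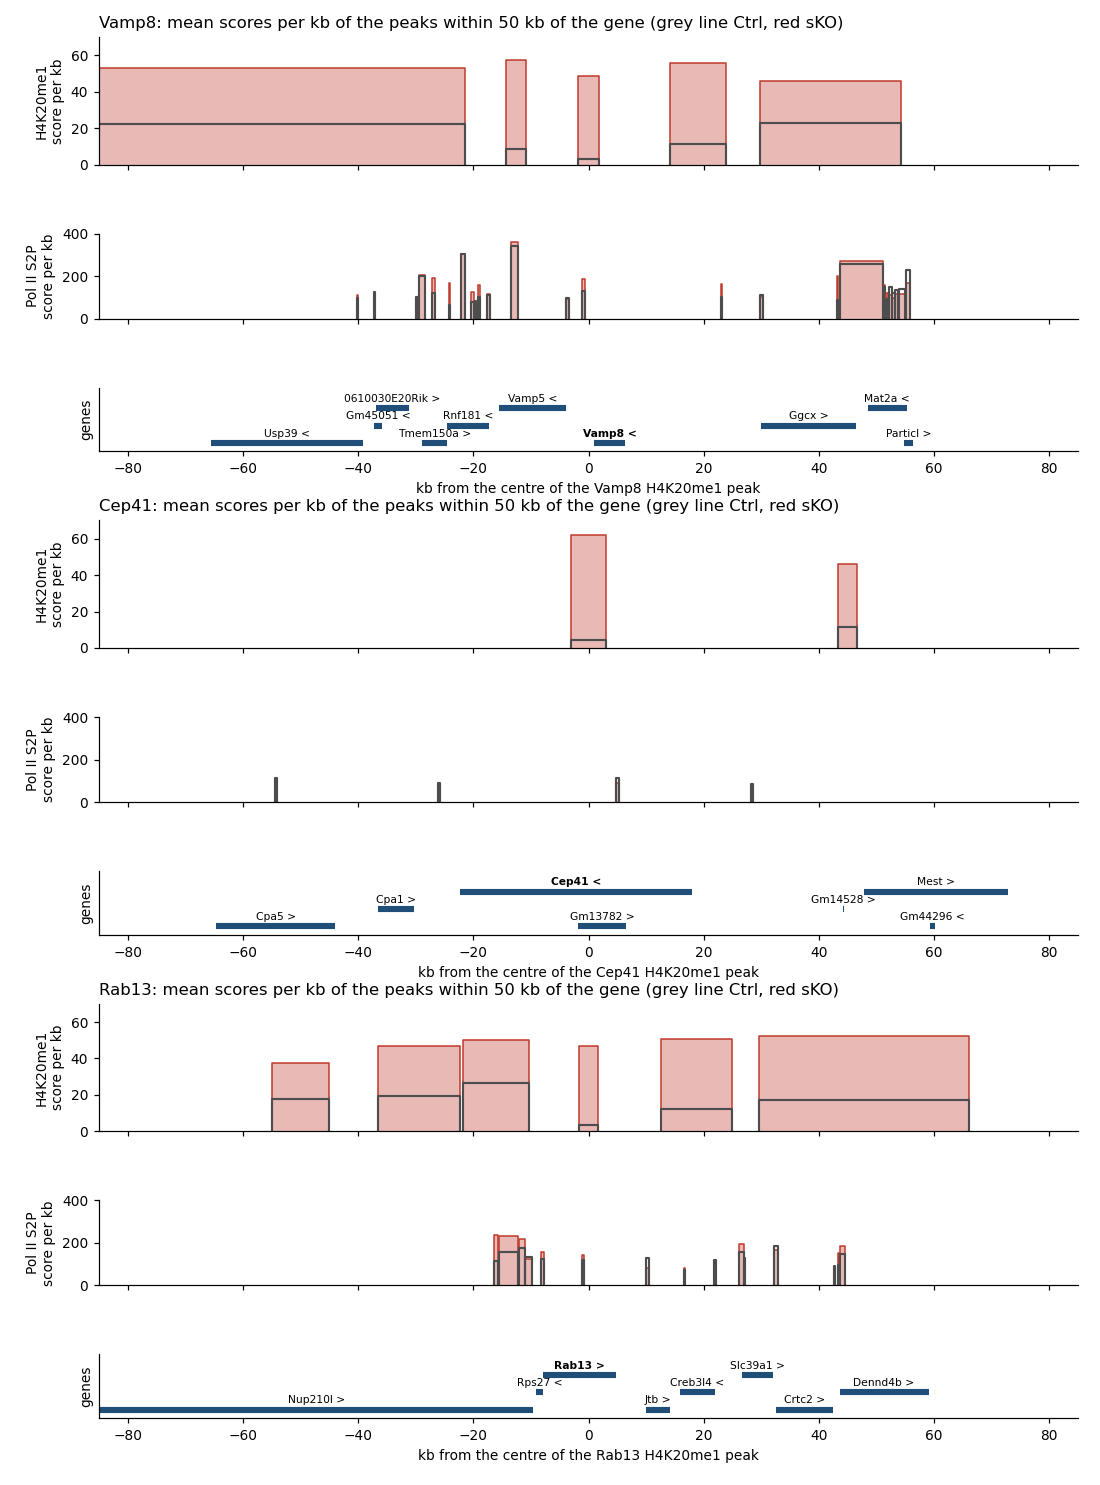
H4K20me1 and Pol II S2P score per kb (y axes, means of 2 libraries, grey line Ctrl and red sKO) of the peaks within 50 kb of each gene, over the distance in kb from the centre of the H4K20me1 peak listed with it (x axis), with genes drawn below and arrowheads for strand. The 3 central peaks reach the height of their neighbours in sKO and are nearly flat in Ctrl. The Pol II S2P outlines of the genotypes part in both directions. From Ctrl to sKO a peak in Rnf181 went from 63.2 to 170 per kb and a peak in Jtb from 129 to 80.7.

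Over the 10 neighbouring peaks the Ctrl means per kb spanned a 3.04-fold range, from 8.68 to 26.4, and the sKO means a 1.53-fold range, from 37.8 to 57.6. With the 3 central peaks, chosen in a way that favours low Ctrl scores, the ranges were 9.11-fold and 1.64-fold. Over all autosomal peaks the interquartile range was 17.8 to 26.8 in Ctrl and 44.4 to 53.7 in sKO. The peaks are a union over libraries, so a site low in Ctrl can be listed through sKO alone. That favours a narrower range in sKO, at the neighbouring peaks too, and the ranges were not tested. The share of a neighbourhood's H4K20me1 score that fell in the central peak is free of any scaling of one library against another. At Vamp8 it was 0.602% and 0.391% in Ctrl against 3.13% and 3.32% in sKO. At Rab13 it was 0.530% and 0.853% in Ctrl against 3.83% and 3.15% in sKO. At Cep41, where the sum holds only 1 other peak, it was 48.1% and 35.8% against 77.7% and 66.2%. The higher shares in sKO follow from choosing the 3 genes for their rise and are no separate result.

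Pol II S2P was not used to choose the genes and was tested. Over all autosomes limma called only 5 of 44587 peaks and 0 of 8531 genes. The standard error was 0.42 even at the long peak over Mat2a and Ggcx. A peak or gene not called here therefore does not show an unchanged polymerase. The paper, by its own test on values per gene, reported higher Pol II S2P occupancy in many genes of the knockout cells. Vamp8 was listed with no Pol II S2P peak, and none lay within its gene body. The peak inside its H4K20me1 peak, at chr6:72383206-72383746 downstream of the gene, scored 72 and 69 in Ctrl against 131 and 70 in sKO. One sKO library was above all others and the other one was level with Ctrl, and the log2 change was 0.44 ± 0.44 (SE, limma, adjusted p = 1). Whether this peak belongs to read-through transcription of Vamp8 or to another transcript was not tested.

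Cep41 was listed with 1 Pol II S2P peak, at chr6:30680451-30681019, which holds the start of Cep41-205 and lies 1651 bases outside the H4K20me1 peak. It scored 43 and 85 in Ctrl against 61 and 42 in sKO. The genotypes overlapped, and the gene's log2 change was -0.25 ± 0.51 (SE, limma over genes, adjusted p = 1). No Pol II S2P peak was found within 10 kb of the start of the full-length transcript, the nearest being 10228 bases away.

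Rab13 was also listed with 1 peak, at chr3:90220401-90220758, which ends 29 bases before the start of Rab13-201 and lies inside the H4K20me1 peak. It scored 34 and 51 in Ctrl against 65 and 37 in sKO, a log2 change of 0.23 ± 0.50 (SE, limma over peaks, adjusted p = 1). As a gene, Rab13 was below the minimum mean of 50. The peak over the divergent starts of Rps27, which encodes a ribosomal protein, and Rab13-202 scored 49 and 50 in Ctrl against 68 and 55 in sKO. Here the genotypes did not overlap, yet the log2 change of 0.30 ± 0.47 did not pass the test (limma, adjusted p = 1), and reads of the 2 divergent genes cannot be told apart in this peak.

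**Figure D4:**
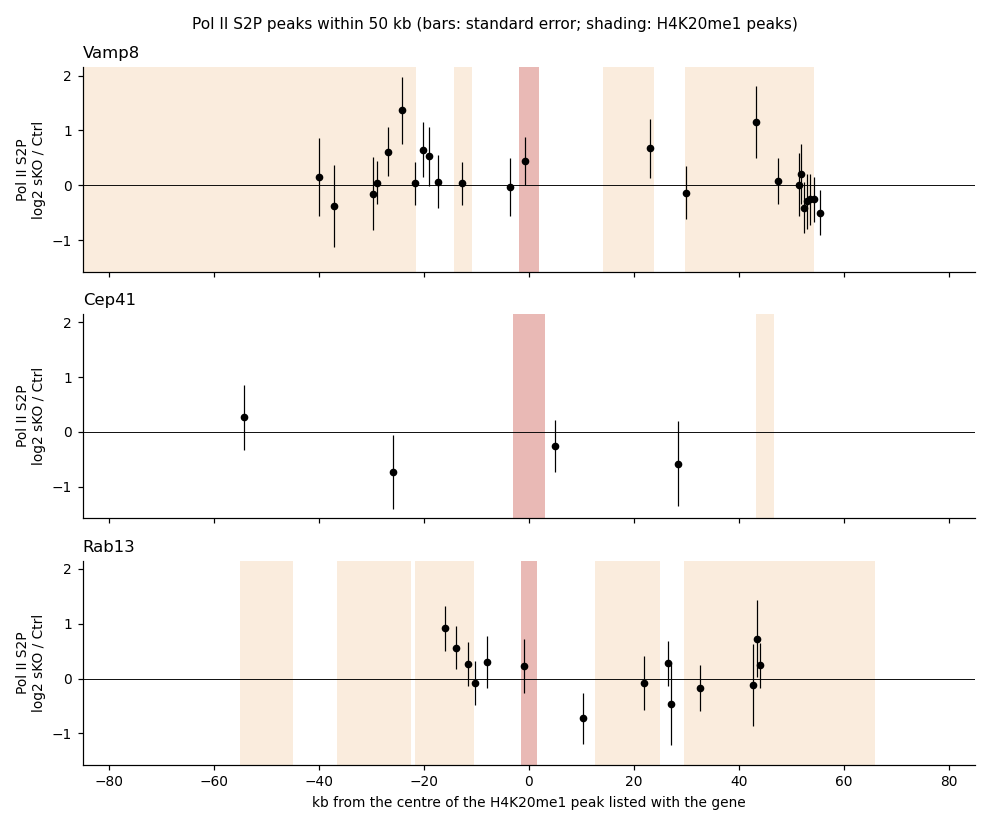
Log2 change of Pol II S2P in sKO against Ctrl (y axis, points with standard errors from limma, 2 libraries per genotype) for the 42 peaks tested, over the distance in kb from the centre of the H4K20me1 peak listed with each gene (x axis). Red shading marks that H4K20me1 peak and orange shading the others. The points scatter on both sides of 0 from -0.72 to 1.36 and none was called.

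Of the 44 Pol II S2P peaks within 50 kb, 42 were tested and 0 were called in either direction by limma, where 0.0112% of all peaks tested were. At an unadjusted limma p under 0.05 there were 2, beside 1603 of the 44587 peaks tested over all autosomes, so 2 of 42 does not stand out. The 2 lay in Rnf181, a ubiquitin ligase gene, and in Nup210l. The Rnf181 peak scored 20 and 15 in Ctrl against 56 and 38 in sKO, with a log2 change of 1.36 ± 0.61. The Nup210l peak scored 72 and 105 in Ctrl against 264 and 103 in sKO, with a log2 change of 0.92 ± 0.41. The Nup210l peak was called once the libraries were scaled to equal totals, where 2.2% of all peaks were. The median log2 change of the 42 was 0.04, beside 0.15 for all Pol II S2P peaks. Both sKO libraries were above both Ctrl libraries at 6 of the 42 and below them at 5, compared with 17.2% and 6.66% of all peaks tested.

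Of the 25 Pol II S2P peaks around Vamp8, 19 overlapped an H4K20me1 peak, as did 11 of the 15 around Rab13 and 0 of the 4 around Cep41. The longest H4K20me1 peak was 69600 bases around Vamp8, 36400 around Rab13 and 6200 around Cep41, so the room for overlap differed. These counts were not compared with all Pol II S2P peaks. Around Vamp8 the strongest Pol II S2P peaks were over Mat2a and Ggcx and inside Vamp5. The longest peak, over Mat2a and Ggcx, scored 1782 and 2105 in Ctrl against 2387 and 1747 in sKO. The Vamp5 peak, 5 bases downstream of the internal start of Vamp5-203, scored 394 and 504 in Ctrl against 587 and 356 in sKO. The latter lies inside the Vamp5 H4K20me1 peak, and its log2 change was 0.04 ± 0.39 (SE, limma, adjusted p = 1) beside an H4K20me1 rise of 2.71. The genotypes overlapped at both.

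On the deposited scale the genotypes overlapped in the Pol II S2P score summed over each neighbourhood. Around Vamp8 the sums were 3446 and 4260 in Ctrl against 4843 and 3315 in sKO, a log2 difference of 0.06 (exact two-sided permutation test, p = 1). Around Cep41 they were 95 and 230 against 159 and 91, a log2 difference of -0.30 (exact permutation p = 0.667), and around Rab13 1410 and 1826 against 2576 and 1533, a log2 difference of 0.31 (exact permutation p = 0.667). With 2 libraries against 2 the smallest p this test allows is 0.333. Scaled to equal library totals, the genotypes no longer overlapped around Vamp8, where the sums were 4185 and 3971 in Ctrl against 3921 and 3817 in sKO and the log2 difference turned to -0.08 (exact permutation p = 0.333). They did not overlap around Rab13 either, at 1712 and 1702 against 2086 and 1765 with a log2 difference of 0.17 (exact permutation p = 0.333), while around Cep41 they still did, with a log2 difference of -0.44. The difference around Rab13 was -0.07 without the first sKO library, that around Vamp8 was -0.09 without the first Ctrl library and -0.21 without the first sKO library, and that around Cep41 was 0.34 without the second Ctrl library and 0.11 without the second sKO library.

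The 5 genes whose H4K20me1 scores over the 4 libraries were closest to the mean profile of the 3 (Euclidean distance on log2(score + 1), among 13750 genes) were 1700025L06Rik, Slc38a6, 4930417H01Rik, Lman1l and Gm40915. Their distances were 0.699 to 0.895. Slc38a6, an amino acid transporter gene, had H4K20me1 scores of 15 and 24 in Ctrl against 190 and 164 in sKO, and Lman1l, a gene of the lectin family of cargo receptors, 14 and 21 in Ctrl against 158 and 140 in sKO. Slc38a6 had Pol II S2P sums of 919 and 1141 in Ctrl against 1134 and 912 in sKO, and the genotypes overlapped. The log2 change of Pol II S2P in the 5 ranged from -0.08 to 0.40 and none was called (limma, adjusted p = 1 for each).

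Genes that work with the 3 were described from lists. Of 15 SNARE genes related to or paired with VAMP8, 9 had an H4K20me1 peak and all 9 were called higher, where 92.3% of all genes tested were. Their median log2 rise was 1.19, beside 1.11 over all genes. Vamp5 rose most, by 2.71, and Snap23, a plasma membrane SNARE, least, by 0.98. The Vamp5 value comes from 1 peak, the neighbour of the Vamp8 peak described above, so it is not a separate observation. Snap29 and Stx17, which pair with VAMP8 in autophagosome fusion, rose by 1.06 and 1.02. Of the 9 with a Pol II S2P peak, 7 were tested and 0 were called (limma, 0 with an unadjusted p under 0.05).

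Among all genes tested 92.3% were called higher in H4K20me1, with a median log2 rise of 1.11. Of 34 genes for cilia and tubulin glutamylation, chosen for CEP41, 26 had an H4K20me1 peak and 25 were called higher. The median log2 rise of the 26 was 1.25. The exception was Ttll6, a tubulin glutamylase that CEP41 is known to bring to cilia, with scores of 2969 and 4607 in Ctrl against 4630 and 4711 in sKO and a log2 change of 0.34 ± 0.28 (limma, adjusted p = 0.245). The most risen was Tmem231, a gene of the ciliary transition zone, by 1.68. Its Pol II S2P scores were 27 and 64 in Ctrl against 60 and 51 in sKO. In Pol II S2P 19 of the list were tested and 0 were called, with changes from -0.36 in Ttll7 to 0.62 in Arl13b.

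Of 12 genes of the RAB8 group and of Rab regulators, 8 had an H4K20me1 peak and 6 were called higher. Among all genes tested the share was 92.3%. The median log2 rise of the 8 was 0.79, beside 1.11 over all genes. Rab10 and Rab35 were not called (log2 changes 0.22 ± 0.28 and 0.42 ± 0.27, limma, adjusted p = 0.441 and 0.121). Rabggta, a subunit of the enzyme that attaches lipid to Rab proteins, rose most, by 1.42, from scores of 26 and 91 in Ctrl to 125 and 141 in sKO. In Pol II S2P 9 were tested and 0 were called, from -0.28 in Rab8a to 0.51 in Rabif. By limma 0.0% of all genes tested were called in Pol II S2P, and 100 of the 8531 had an unadjusted p under 0.05. With equal library totals the genes called higher in H4K20me1 fell to 2 of 9 in the SNARE list, 3 of 26 in the cilium list and 0 of 8 in the Rab list, beside 20.8% of all genes tested on that scale. Whether a list differed from other genes was not tested.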

How the data were processed

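H4K20me1 and Pol II S2P (RNA polymerase II phosphorylated at serine 2) were profiled by CUT&RUN in cultured MuSCs. Per the submitters' processing notes the authors used the aligner STAR 2.7.3a, the peak callers SICER 0.0.41 and MACS2 2.1.1, and FastQC 0.11.8, Picard 2.21.7 and Trimmomatic 0.39, with mm10 (GRCm38) and BDGP6 as genomes, and per the labels S2 cell DNA was added as spike-in. The authors deposited scores in whole numbers, one per library at every peak of the union, that stand for spike-in normalised coverage, and the fraction of each peak that overlaps its listed gene. The scores were not treated as counts, their depth in reads is unknown, and the scale set by the spike-in could not be checked. The 2 IgG libraries, 1 per genotype, were not analysed here.

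Gene sums and peaks on autosomes were compared with limma 3.58.1 (lmFit, eBayes with trend) in R 4.3.3 on log2(score + 1), 2 libraries per genotype, over all genes with a mean over 50 and all peaks with a mean over 20. A feature was called where its p, adjusted by Benjamini-Hochberg, was under 0.1 and its log2 change over 0.5 in size. Neighbourhoods reached 50 kb from either end of the gene. GENCODE M21 gave names, starts and exons, and sequences came from GRCm38 with pysam 0.24.0. Other values were computed with Python 3.11.15, pandas 2.3.3 and scipy 1.17.1. The limma step was tested on simulated data whose libraries had equal scale. That check does not cover calls where library totals differ, as they do here. Named were the 3 genes, the genes within 50 kb, the next 3 by rise, the 5 nearest profiles, and from the SNARE, cilium and Rab lists the called genes or those with the highest or lowest change. The members and lists were chosen with earlier results of these data known. Alternatives were equal totals, quantile normalisation, a pseudocount of 5, other minimum means, a window of 25 kb, each library left out and the replicate number as a block.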

Additional observations from a re-analysis of the deposited data

How the results depend on the processing

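Scale and single libraries moved counts of calls. Over all autosomal H4K20me1 peaks 36898 were called higher and 1 lower, with equal totals 9270 and 1813, and with quantile normalisation 4753 and 4768. For Pol II S2P peaks these pairs were 4 and 1, 741 and 237, and 365 and 82, and for Pol II S2P genes 0 and 0, 108 and 73, and 112 and 29. With equal totals and with quantile normalisation, 5 and 4 of the 10 neighbouring H4K20me1 peaks were called higher, and leaving out each library gave 5 to 10, the lowest without the second sKO library. With equal totals 1 of the 42 Pol II S2P peaks was called, and 0 under every other alternative run. In the lists, called H4K20me1 genes fell with equal totals and quantile normalisation to 2 and 2 (SNARE), 3 and 2 (cilium) and 0 and 0 (Rab), and ranged over left-out libraries from 3 to 9, 8 to 26 and 1 to 7, lowest without the second sKO library. List alternatives were added after the data were seen. The Pol II S2P log2 change of Cep41 as a gene ranged from -0.74 without the first Ctrl library to 0.011 without the second sKO library, and without the second Ctrl library it was below the minimum mean. In a window of 25 kb the Cep41 peak is the only one, so the difference of its share between genotypes was 0 and carries no information. A genotype left with 1 library was assumed to vary like the other.

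With the replicate number as a block, 10 neighbouring H4K20me1 peaks and 0 Pol II S2P peaks were called and the lists gave 9, 25 and 6 called genes, the same counts as without it. The labels do not say whether same-numbered libraries are paired, so the numbers were used as names only. Deviations of same-numbered libraries correlated at 0.04 for H4K20me1 peaks and -0.04 for Pol II S2P peaks. These correlations see only differences particular to single peaks and do not settle whether such libraries were prepared together. Scores give no read depth, so no counting error could be given.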
